A study of Mus musculus with 10 samples.

Results

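Megakaryocyte and platelet genes were followed in mouse blood stem and progenitor cells in which a retroviral HOXB4 protein was kept active or switched off. The set is the 12 probe sets of the array whose platform symbol is Itga2b, Itgb3, Pf4, Ppbp, Gp9, Gp1bb, Gp5, Gp6, Vwf or Gfi1b, that is 10 genes of 18193 and 12 probe sets of 45037. Itgb3 and Gp1bb have 2 probe sets each, the other genes have 1, and 1 further probe set that the annotation shares between Gp1bb and Septin5 was left out. All cells carried a retroviral HOXB4 transgene together with EGFP. HOXB4-ER is HOXB4 joined to a tamoxifen-responsive oestrogen receptor domain, so that 4-hydroxytamoxifen (TMX) brings it into the nucleus, and HOXB4const is the unmodified, constitutively active protein that served as the control for effects of TMX itself. Transduced Lin-Sca1+ cells of both constructs were grown for 14 days with 10 nM TMX and cytokines, sorted for GFP and the LSK phenotype (Sca1 and c-kit without lineage markers) and held for 12 h more with TMX. They were then divided into portions with and without TMX. There were 5 groups of 2 arrays. HOXB4-ER cells were kept with 10 nM TMX for 1 h, without it for 1 h, or without it for 4 h, and HOXB4const cells were kept with or without it for 1 h. The labels call replicates 1 and 2 biological and do not say whether they came from separate animals or cultures, so the p-values measure the spread between these samples. HOXB4-ER cells held with TMX for 4 h were not analysed here, so the 4 h difference holds both withdrawal and time. Each sample is a bulk population, in which fewer cells of a type and less RNA per cell cannot be told apart.

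Megakaryocytes are the marrow cells that shed platelets, and part of their programme is already switched on in stem and early progenitor cells. Itga2b and Itgb3 encode the subunits of the integrin αIIbβ3, which binds fibrinogen when platelets aggregate, and Itga2b (CD41) also marks early blood progenitors and mast cells. Gp9, Gp1bb and Gp5 encode subunits of the GPIb-IX-V receptor for von Willebrand factor, and Gp6 a collagen receptor. Pf4 and Ppbp encode chemokines stored in platelet alpha granules, Vwf encodes von Willebrand factor of platelets and endothelium, and Gfi1b is a zinc-finger repressor needed in erythroid and megakaryocytic cells.

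GATA, ETS and RUNX factors drive megakaryocyte genes, so the promoter windows of the members were searched on both strands for short motifs. The GATA motif was AGATAA or TGATAA, the ETS motif was GGAAGT and the RUNX motif was TGTGGT. The windows run from 250 bases before the gene start to 50 after it (RefSeq, GRCm38.p6), and the table held 8 of the 10 genes. A GATA motif was found in 4 of the 8 (Gfi1b, Pf4, Gp6, Gp5), an ETS motif in 6 (Ppbp, Pf4, Gp9, Gp6, Itga2b, Gp5) and the RUNX motif in 1 (Gp9), while 18.6%, 23.8% and 16.8% of all 32851 windows held them. The windows of Pf4 and of its neighbour Ppbp are shown because these chemokine genes gave opposite differences between the replicate numbers, and that of Itga2b because its replicate difference changed direction between the constructs. Capitals mark the motifs. The ETS motif lies on the other strand in all 3 and reads ACTTCC, with its leftmost base at −10 in Pf4, −57 in Ppbp and −26 in Itga2b, and the GATA motif of Pf4 starts at base 37 of the gene. The letters are a description and not a measurement of binding.
Pf4, chr5:90772185-90772484, plus strand: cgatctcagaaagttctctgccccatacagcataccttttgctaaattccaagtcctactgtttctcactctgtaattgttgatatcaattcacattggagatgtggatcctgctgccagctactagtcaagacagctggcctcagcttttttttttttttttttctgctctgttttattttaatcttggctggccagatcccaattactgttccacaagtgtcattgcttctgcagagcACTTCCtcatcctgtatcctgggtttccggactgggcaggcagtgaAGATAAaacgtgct
Ppbp, chr5:90768268-90768567, plus strand: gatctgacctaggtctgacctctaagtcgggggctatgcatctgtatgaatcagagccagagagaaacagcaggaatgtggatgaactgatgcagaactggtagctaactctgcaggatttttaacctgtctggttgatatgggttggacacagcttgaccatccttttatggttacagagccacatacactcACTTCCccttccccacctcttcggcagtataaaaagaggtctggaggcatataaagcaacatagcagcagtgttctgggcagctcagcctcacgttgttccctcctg
Itga2b, chr11:102469834-102470133, minus strand: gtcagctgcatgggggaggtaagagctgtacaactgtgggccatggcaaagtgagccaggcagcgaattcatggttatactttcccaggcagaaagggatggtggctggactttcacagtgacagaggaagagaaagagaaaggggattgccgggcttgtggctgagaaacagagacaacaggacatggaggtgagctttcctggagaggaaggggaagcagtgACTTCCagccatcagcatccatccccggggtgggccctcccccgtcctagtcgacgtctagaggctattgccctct

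Values are log2 signals, and a difference of 1 is a doubling. The array medians lay between 3.96 and 5.32, and replicate 1 of HOXB4const cells without TMX had the highest of them. The LSK label was checked on Kit, which encodes the sorted receptor and read 8.72 to 10.93 on the 10 arrays; Sca1 (Ly6a) was not analysed here. The RNA also held genes used here as myeloid markers. The mast cell protease gene Cpa3 read 11.45 to 12.71, the neutrophil granule gene Mpo 10.54 to 13.26 and the macrophage receptor gene Csf1r 6.80 to 11.39. The endothelial gene Cdh5 read 0.64 to 3.82, below the median mean level of 4.05, and the erythroid factor gene Klf1 2.92 to 5.20. Of the member genes, 7 were measured at or above that median by their brighter probe set, and Gp9, Gp6, Vwf and the second probe sets of Itgb3 and Gp1bb lay below it. Below that median the median SD within groups was 1.33, against 0.50 above it. Signals of different probe sets are not compared as transcript amounts.

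The integrin subunit genes were among the members measured with the least spread, and Itgb3 separated the arrays of the constructs. Itgb3 (its brighter probe set) read 7.17 and 7.43 in HOXB4-ER cells with TMX, 7.83 and 7.37 after 1 h without it, and 7.53 and 7.96 after 4 h (replicates 1 and 2). In HOXB4const cells it read 8.40 and 8.49 with TMX and 8.60 and 8.02 without. The 4 HOXB4const arrays all lay above the 6 HOXB4-ER arrays, and within each construct neighbouring groups overlapped. With TMX, the difference of HOXB4-ER minus HOXB4const cells was −1.14 ± 0.45 (standard error; limma adjusted p = 1.00). Averaged over both 1 h groups of each construct, a comparison chosen after seeing the data, the difference was −0.93 ± 0.32 (adjusted p = 0.574), so it did not pass the threshold of an adjusted p under 0.05 over all 45037 probe sets. HOXB4const arrays all lay above the 6 HOXB4-ER arrays in 1.85% of probe sets. When each array was centred on its median the Itgb3 arrays of the constructs overlapped (3.27 to 3.95 against 2.80 to 4.00) and the averaged difference was −0.55; after quantile normalization they did not overlap. The dimmer Itgb3 probe set gave −1.50 ± 0.68 in the averaged comparison, with overlapping arrays.

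Itga2b, the partner subunit, read 8.26 and 8.68 in HOXB4-ER cells with TMX, 8.55 and 9.03 after 1 h without it and 7.73 and 8.33 after 4 h. In HOXB4const cells it read 9.30 and 8.31 with TMX and 9.26 and 8.20 without. The 5 group means ran from 8.03 ± 0.43 for HOXB4-ER at 4 h to 8.80 ± 0.70 in HOXB4const cells with TMX (SD, n = 2), and each group overlapped the next in that order. In HOXB4-ER cells withdrawal gave 0.31 ± 0.59 after 1 h and −0.44 ± 0.59 after 4 h, and for HOXB4const it gave −0.08 ± 0.59 after 1 h. Between 1 h and 4 h without TMX the difference was −0.76 ± 0.59 with no overlap of arrays, and its 95% interval ran from −2.14 to 0.63 (adjusted p = 0.967). Arrays of 2 against 2 did not overlap for 36.2% of probe sets in that comparison. With centred arrays these Itga2b groups overlapped (3.87 and 4.60 at 1 h, 3.41 and 4.37 at 4 h), and after quantile normalization they did not.

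**Figure D1:**
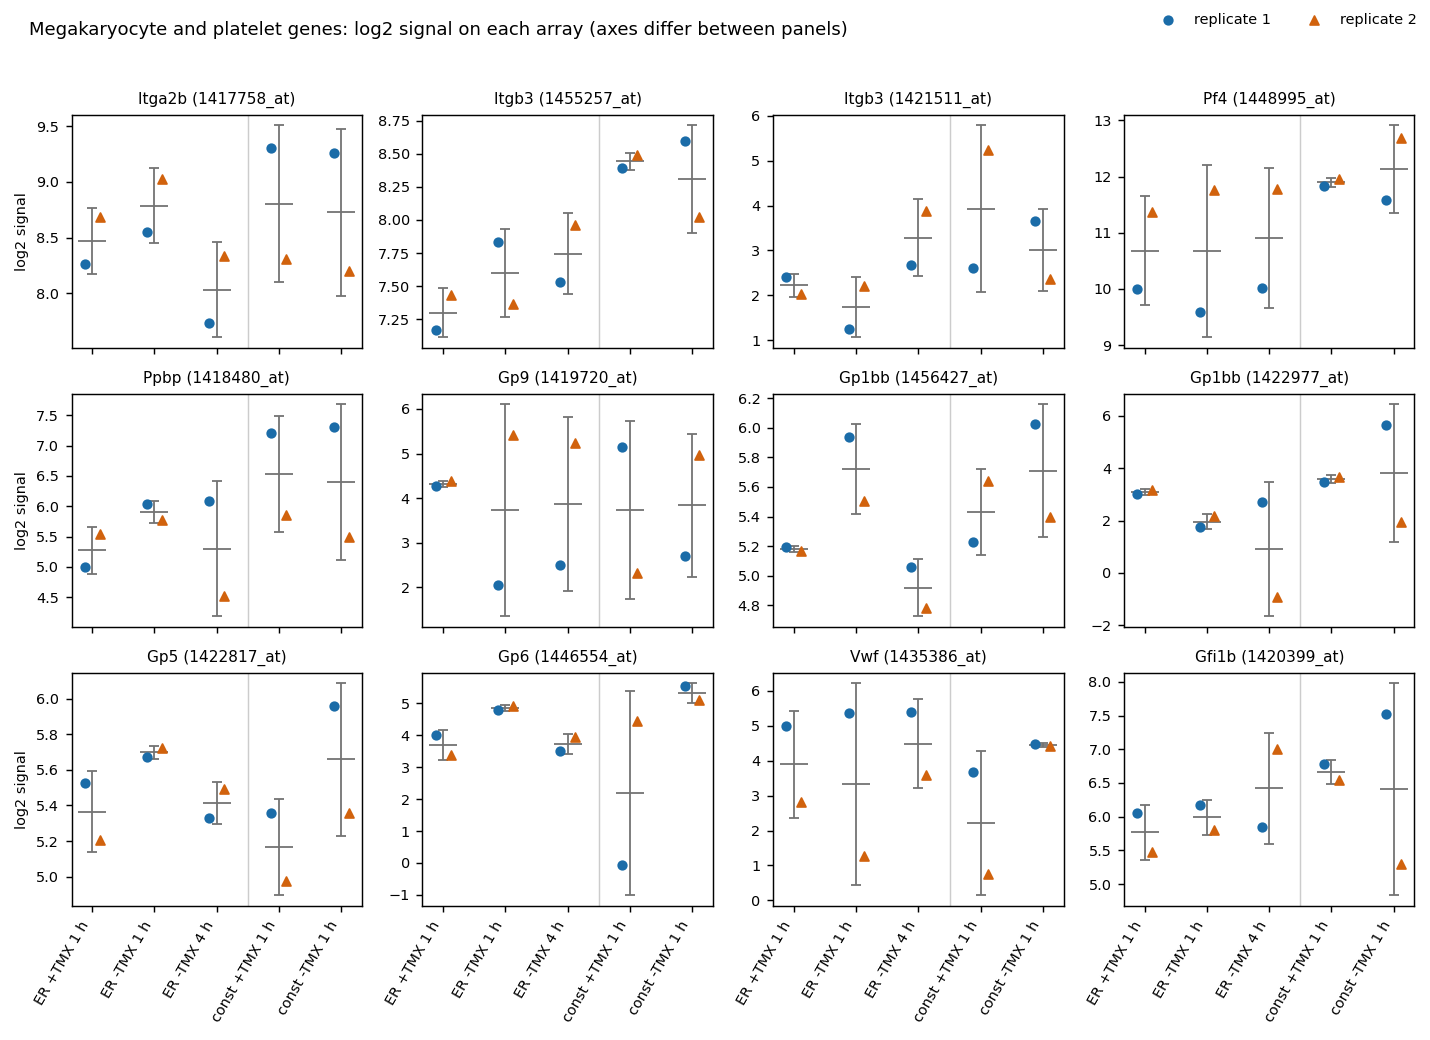
Log2 signal (vertical axes, which differ between panels) of the 12 member probe sets on 10 arrays, by group (horizontal axis; ER is HOXB4-ER, const is HOXB4const). Circles are replicate 1, triangles replicate 2, and bars the mean ± SD of 2 arrays. The 4 HOXB4const arrays of Itgb3 (brighter probe set) lie above its 6 HOXB4-ER arrays in these deposited values (not with centred arrays), and 3 HOXB4-ER replicate 1 arrays of Pf4 lie near 10 while its other arrays are at 11.36 or above.

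Of the adhesion receptor genes of the von Willebrand factor complex, Gp5 and Gp1bb (its brighter probe set) were measured with less spread within groups than Gp9. Gp1bb (its brighter probe set) read 5.19 and 5.16 in HOXB4-ER cells with TMX, 5.94 and 5.50 after 1 h and 5.06 and 4.78 after 4 h without it, and in HOXB4const cells 5.23 and 5.64 with TMX and 6.03 and 5.39 without. Its arrays after 1 h lay above those with TMX and its arrays after 4 h lay below them. The differences were 0.54 ± 0.45 and −0.26 ± 0.45, and 0.28 ± 0.45 in HOXB4const cells. With centred arrays the HOXB4-ER arrays at 1 h overlapped (1.27 and 1.08 without TMX, 0.82 and 1.21 with it). From 1 h to 4 h Gp1bb gave −0.80 ± 0.45 (adjusted p = 0.947). The dimmer Gp1bb probe set went the other way after 1 h, at −1.13 ± 1.43, and read from −0.91 to 5.66 over the 10 arrays.

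Gp5 read 5.53 and 5.21 in HOXB4-ER cells with TMX, 5.67 and 5.72 after 1 h and 5.33 and 5.49 after 4 h without it. In HOXB4const cells it read 5.36 and 4.97 with TMX and 5.96 and 5.36 without. All 10 arrays lay within 4.97 to 5.96, and the differences on withdrawal were 0.33 ± 0.44, 0.05 ± 0.44 and 0.49 ± 0.44 for HOXB4-ER at 1 h and 4 h and HOXB4const at 1 h. The 95% intervals of these differences reached 1.03 to either side, so a doubling cannot be told from no change here. Gp9 was dim and spread widely within groups, at 2.05 and 5.41 for HOXB4-ER 1 h after withdrawal against 4.27 and 4.37 with TMX, and 5.15 and 2.33 in HOXB4const cells with TMX. Its pooled SD within groups was 1.79, and its differences on withdrawal (−0.60, −0.45 and 0.10, each ± 1.54) lay inside it.

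Gp6, the collagen receptor gene, was also dim. It read 4.01 and 3.37 in HOXB4-ER cells with TMX, 4.78 and 4.91 after 1 h and 3.49 and 3.95 after 4 h without it, and in HOXB4const cells 5.53 and 5.09 without TMX. The HOXB4const arrays with TMX read −0.07 and 4.46, and the first of these set the difference of 3.12 ± 1.28 in that construct (adjusted p = 1.00). By replicate number this difference was 5.60 for replicate 1 and 0.64 for replicate 2, so its size rests on 1 array.

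Among the granule genes, Pf4 separated the HOXB4-ER replicate 1 arrays from all others. It read 10.00, 9.59 and 10.02 on the replicate 1 arrays of the HOXB4-ER groups (with TMX, 1 h without and 4 h without), and 11.36, 11.76 and 11.78 on the replicate 2 arrays of the same groups. In HOXB4const cells it read 11.84 and 11.95 with TMX and 11.57 and 12.68 without. Withdrawal gave −0.01 ± 0.95 at 1 h and 0.22 ± 0.95 at 4 h for HOXB4-ER, and 0.23 ± 0.95 for HOXB4const. The intervals reached 2.24 to either side, since the replicates of each HOXB4-ER group lay far apart and this fit does not pair arrays by replicate number. Within replicates 1 and 2 the withdrawal differences were −0.41 and 0.40 at 1 h and 0.02 and 0.42 at 4 h for HOXB4-ER. For HOXB4const they were −0.26 and 0.73. The difference between the constructs, averaged over the 1 h groups, was −1.33 ± 0.67 (adjusted p = 0.727), with overlapping arrays that no longer overlapped after quantile normalization. With the replicate number as a block, which leaves the difference as it is, the standard error was 0.40 (adjusted p = 0.492). Without replicate 1 of HOXB4-ER cells after 1 h of withdrawal the difference was −0.79, and without replicate 2 of that group −1.88.

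Ppbp, which lies next to Pf4, read 5.0 and 5.54 in HOXB4-ER cells with TMX, 6.03 and 5.78 after 1 h and 6.09 and 4.51 after 4 h without it. In HOXB4const cells it read 7.21 and 5.86 with TMX and 7.30 and 5.49 without. After 1 h the HOXB4-ER arrays without TMX lay above those with it, at a difference of 0.63 ± 0.84, and after 4 h the difference was 0.03 ± 0.84. With centred arrays those at 1 h overlapped (1.36 and 1.35 without TMX, 0.63 and 1.59 with it). Vwf read 4.99 and 2.82 in HOXB4-ER cells with TMX, 5.37 and 1.28 after 1 h, 5.40 and 3.58 after 4 h, and in HOXB4const cells 3.67 and 0.75 with TMX and 4.49 and 4.41 without. The groups of Vwf overlapped in HOXB4-ER cells, and the differences were −0.58 ± 1.57, 0.59 ± 1.57 and, in HOXB4const cells, 2.24 ± 1.57.

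Gfi1b, the only transcription factor among the members, read 6.06 and 5.48 in HOXB4-ER cells with TMX, 6.17 and 5.81 after 1 h and 5.84 and 7.01 after 4 h without it. In HOXB4const cells it read 6.78 and 6.54 with TMX and 7.52 and 5.29 without. Its differences on withdrawal were 0.22 ± 0.79, 0.66 ± 0.79 and −0.26 ± 0.79, and −0.89 ± 0.79 between HOXB4-ER and HOXB4const cells with TMX, where the arrays did not overlap.

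**Figure D2:**
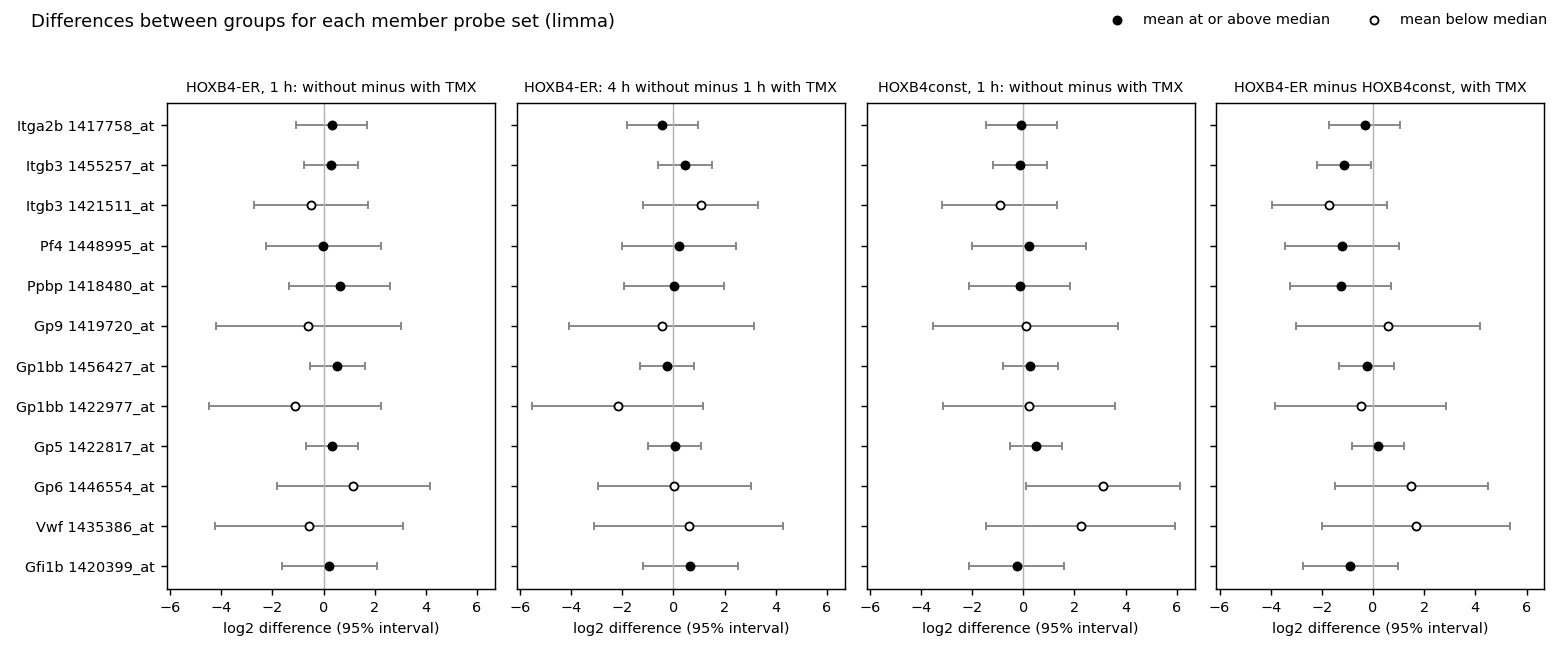
Log2 differences (horizontal axes) of the 12 member probe sets (rows) in 4 comparisons, with limma's 95% intervals; filled points have a mean signal at or above the median of all probe sets and open points below it. Intervals of Itgb3 (brighter probe set) between the constructs and of Gp6 in HOXB4const cells leave out 0, and neither difference passed after adjustment.

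No member passed the test on TMX withdrawal. After 1 h in HOXB4-ER cells limma called 0 of the 12 member probe sets and 0% of all 45037, and at an unadjusted p under 0.05 it called 0 members against 4.76% of all probe sets. The arrays of the groups did not overlap for 5 of the 12, against 32.1% of all probe sets, and 4 of them (Ppbp, Gp1bb, Gp5 and Gp6) were higher, against 21.1%. With centred arrays only Gp6 stayed higher without overlap, beside 11.4% of all probe sets. The dimmer probe sets of Itgb3 and Gp1bb and that of Gfi1b were then lower without overlap, 3 of 12 beside 22.7%. The 10 genes had a median difference of 0.31 with 7 higher and 3 lower, beside a median of 0.07 and 55.2% higher over all 18193 genes. These directions depend on the scaling. The deposited values put the median of all probe sets at 0.12 in this comparison, and centring each array on its median moved it to −0.27; then 3 members (Ppbp, Gp1bb and Gp6) were higher and 7 lower, with a median of −0.08, beside 29.96% of all genes higher. After quantile normalization 8 were higher and 2 lower, with a median of 0.25.

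After 4 h the median over the members was 0.04 with 7 of 10 higher (all genes 0.02, 51.7% higher; also 7 of 10 under both other scalings), with 0 member probe sets at an unadjusted p under 0.05, against 3.35% of all. The arrays did not overlap for 4 of 12, both probe sets of Itgb3 (higher) and of Gp1bb (lower), against 30% of all. With centred arrays the dimmer Itgb3 probe set stayed higher, beside 13.8% of all. Both of Gp1bb stayed lower, the brighter one barely, beside 14.7%. From 1 h to 4 h without TMX the median over the members was −0.07 with 5 of 10 higher (all genes −0.06). It was 0.34 and 6 of 10 with centred arrays, beside 0.36 over all genes. Again 0 member probe sets had an unadjusted p under 0.05, against 5.68%. In HOXB4const cells withdrawal gave a median of 0.16 with 6 of 10 higher (−0.14 and 3 of 10 with centred arrays), and Gp6 was the 1 member at an unadjusted p under 0.05, against 4.34%. Gp6 and Vwf had arrays that did not overlap, 2 of 12 against 25% of all. With centred arrays Gp6 stayed higher (beside 12.0% of all) and the arrays of Vwf overlapped. The brighter Itgb3 probe set was then lower without overlap (beside 15.1%). Both withdrawal differences at 1 h were also compared directly: HOXB4-ER minus HOXB4const gave a median of 0.05 (−0.03 with centred arrays), from −2.82 ± 2.22 for Vwf to 0.78 ± 1.18 for Ppbp, with 0 members at an unadjusted p under 0.05 against 3.77%. The 3 HOXB4-ER comparisons share arrays, so their values are not separate evidence. No member passed in any of these comparisons, and 0% of all probe sets did.

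Between the constructs with TMX, 6 of the 10 members stood lower in HOXB4-ER cells, beside 58.5% of all genes (median −0.29, all genes −0.10). With each array centred on its median 4 of 10 did, beside 31.0% of all genes, and the median was 0.12 beside 0.32 over all genes. The arrays did not overlap for 7 of the 12 member probe sets, all lower in HOXB4-ER cells, against 22.5% of all probe sets in that direction: both probe sets of Itgb3 and of Gp1bb, and those of Pf4, Ppbp and Gfi1b. With centred arrays 3 of these, both probe sets of Itgb3 and that of Gfi1b, stayed lower without overlap, beside 12.1% of all probe sets, and Gp5 was higher in HOXB4-ER cells without overlap, beside 22.6%. Itgb3 was the 1 member at an unadjusted p under 0.05, against 4.38% of all probe sets. When all 10 arrays were taken, Itgb3 was the 1 member with separate constructs in the deposited values. With centred arrays it was Gp5, in the opposite direction (1.00 to 1.54 on HOXB4-ER and 0.26 to 0.91 on HOXB4const arrays), beside 2.13% of all genes. After quantile normalization the members were Itgb3 and Pf4, and the share over all genes was not analysed here. Some mast cell genes separated the constructs in the same direction: of 11 measured mast cell and basophil genes, 3 (Cpa3, Ms4a2 and Hdc) had all HOXB4const arrays above all HOXB4-ER arrays, against 1.83% of all genes; with centred arrays none of the 3 did. The mean level of that whole list overlapped between the constructs, at 6.82 to 7.92 in the HOXB4-ER groups and 7.22 to 7.80 in the HOXB4const groups. Of 11 neutrophil genes, 2 (Mpo and Prtn3) had all HOXB4const arrays below all HOXB4-ER arrays, against 0.671% of all genes. Both stayed apart with centred arrays, beside 2.13% of all genes. The part of these cell types in the Itgb3 and Pf4 differences was not tested.

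A wider list of 60 megakaryocyte and platelet genes, of which 54 were measured, gave the same count of 0 past the threshold in every comparison. After 1 h in HOXB4-ER cells 34 of 54 were higher (median 0.15; 15 and −0.23 with centred arrays) and 0 had an unadjusted p under 0.05; after 4 h 31 were higher (median 0.10) and 1 had. That gene was Myl9, a myosin light chain gene (2.01 ± 0.85, adjusted p = 1.00), followed by Nfe2, the transcription factor needed for platelet release (1.02 ± 0.45), the ADP receptor gene P2ry1 (1.85 ± 0.92) and Lyl1 (0.81 ± 0.46). At 1 h the genes with the smallest p were Rab27b (−1.26 ± 0.79), Srgn (0.58 ± 0.43), P2ry12 (2.66 ± 2.07) and Alox12 (1.38 ± 1.16), and from 1 h to 4 h they were Myl9 (1.91 ± 0.85), Rab27b (1.41 ± 0.79), Tgfb1 (−1.05 ± 0.61) and F2rl3 (−0.85 ± 0.56). Of these, Myl9, P2ry1 and Alox12 were dim, with means at percentiles 11.7, 35.1 and 37.4 of all probe sets. P2ry12 read −0.98 to 6.36 over the arrays. In HOXB4const cells 27 of 54 were higher on withdrawal (median 0.00; 13 and −0.31 with centred arrays), led by Mylk, the myosin light chain kinase gene (2.40 ± 1.05), with Vps33b (−1.39 ± 0.96), Clu (−0.90 ± 0.78) and Gata1 (−1.01 ± 0.90). Mylk was also the 1 gene of 54 at an unadjusted p under 0.05 in the direct comparison of both withdrawals (−3.61 ± 1.49), before Vps33b (1.93 ± 1.36), Rab27b (−1.55 ± 1.11) and Pdgfa (1.77 ± 1.47). With TMX, P2rx1 (−1.31 ± 0.45), P2ry1 (−2.06 ± 0.92), Myl9 (−1.91 ± 0.85) and Gng11 (−1.03 ± 0.48) led the differences of HOXB4-ER minus HOXB4const, with 1 of 54 at an unadjusted p under 0.05. Between the constructs, averaged over the 1 h groups, 34 of 54 were lower in HOXB4-ER cells (median −0.15; 22 and 0.23 with centred arrays) and 7 of these had an unadjusted p under 0.05, against 5.54% of all genes. This count of lower genes depended on the scaling, at 1 of 54 with centred arrays and 5 of 54 after quantile normalization. In either direction it was 2 of 54 with centred arrays, beside 6.42% of all probe sets. After quantile normalization it was 5 of 54, beside 6.51%. Shares of lower genes over all genes were not analysed here under these scalings. For the members in that comparison, Itgb3 was the 1 of 12 probe sets at an unadjusted p under 0.05, against 7.52%. With the replicate number as a block it was 2 of 12, Itgb3 and Pf4, against 8.47%, and with centred arrays 0 of 12, against 6.42%.

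Led by P2rx1, the ATP-gated channel of platelets, 4 of the 54 had all HOXB4const arrays above all HOXB4-ER arrays and 1, Rasgrp2, had all below; the shares over all genes were 1.83% and 0.671%. With centred arrays Tbxas1 (above) and Rasgrp2 (below) stayed apart, beside 0.605% and 2.13% of all genes, and P2rx1, Gng11 and Rab27b did not. P2rx1 read 5.56 to 6.20 (median 5.89) on the HOXB4-ER and 6.73 to 7.29 (median 6.98) on the HOXB4const arrays, a difference of −1.11 ± 0.32 (adjusted p = 0.492). Gng11, a G protein subunit gene, read 7.82 to 8.66 and 8.91 to 9.47 (−1.04 ± 0.34, adjusted p = 0.550). F2rl2 (−1.13 ± 0.37) and Myl9 (−1.83 ± 0.60) followed by p. The others were Rab27b, which encodes a granule transport GTPase, and the thromboxane synthase gene Tbxas1.

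The replicate numbers, which the labels give without saying what they stand for, gave the largest member differences relative to their error. Pf4 was higher on the replicate 2 array in 5 of 5 groups, by 0.11 to 2.18, and Vwf lower in 5 of 5, by 0.08 to 4.09; with each array centred on its median these counts were 4 of 5 and 4 of 5. Replicate 2 was higher in 5 of 5 groups for 6.72% of probe sets and lower for 11%. Replicate differences correlated between groups in 10 of 10 pairs (0.210 to 0.527), so the 5 groups are not separate repeats of this difference. There were 2 replicate numbers, and the errors and p-values below hold for these samples only. Fitted over all groups, replicate 2 minus replicate 1 was 1.30 ± 0.35 for Pf4 (limma adjusted p = 0.249) and −2.21 ± 0.59 for Vwf (adjusted p = 0.243), 2 of 12 member probe sets at an unadjusted p under 0.05, against 13.7% of all. No probe set passed in this fit, with 6152 at an unadjusted p under 0.05. With a variance that follows the signal and robust settings, 2706 probe sets passed (6.01%), and Pf4 was the 1 member among them (adjusted p = 0.00767).

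**Figure D3:**
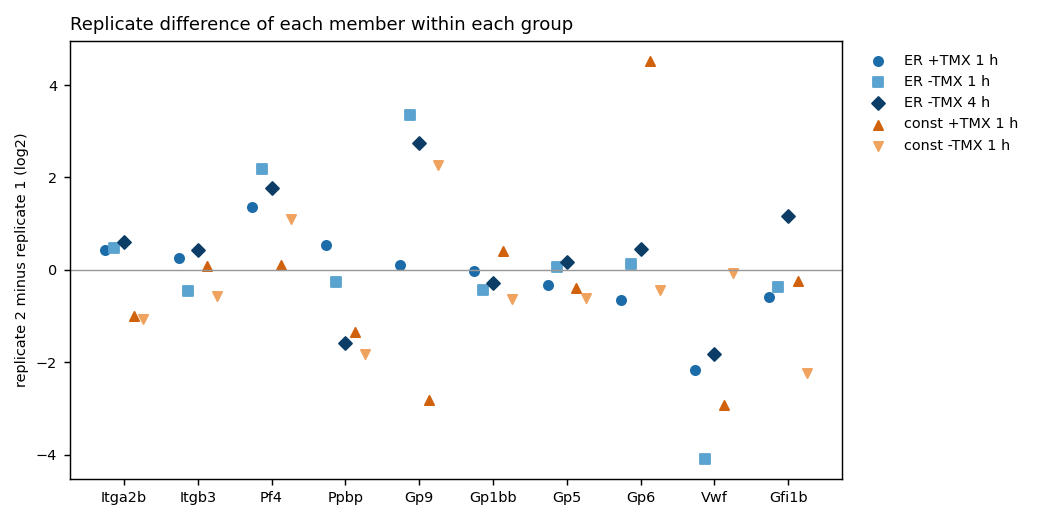
Replicate 2 minus replicate 1 (vertical axis, log2) for the brighter probe set of each of the 10 member genes (horizontal axis), with 1 point for each of the 5 groups. All 5 points of Pf4 lie above 0 and all 5 of Vwf below it in the deposited values (4 of 5 each with centred arrays), and for Itga2b the 3 HOXB4-ER points lie above 0 and the 2 HOXB4const points below.

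Ppbp, the neighbour of Pf4, was lower on replicate 2 in 4 of 5 groups, at −0.89 ± 0.42 (adjusted p = 0.425). Itga2b gave −0.11 ± 0.37 over all groups, which joined 2 opposite parts. Its replicate 2 array was higher in the 3 HOXB4-ER groups, by a mean of 0.50 in the deposited values. In the 2 HOXB4const groups it was lower, by a mean difference of −1.03. The directions, though not these sizes, held under all 3 scalings. A term for the difference of this replicate difference between the constructs, added after seeing the data, was 1.53 ± 0.45 (limma adjusted p = 0.993). Such opposite directions occurred in 4.16% of probe sets. Among the remaining members Gp9 was higher on replicate 2 in 4 of 5 groups, Gfi1b was lower in 4 of 5, and the brighter Gp1bb probe set was lower in 4 of 5 but higher in 4 of 5 with centred arrays. None of these had an unadjusted p under 0.05.

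Monocyte and macrophage genes also differed in level between the replicate numbers, without passing the adjusted threshold. All 11 measured genes of that list were lower on replicate 2, with a median difference of −2.54 and 9 at an unadjusted p under 0.05, beside 52.2% of all genes lower and 12.1% at that p. The list was lower in 11 of 11 under all 3 scalings, and its mean level was 8.37 to 9.08 on replicate 1 and 5.95 to 6.87 on replicate 2 arrays. Csf1r read 10.43 to 11.39 against 6.80 to 8.56. Of 11 neutrophil genes 10 were lower on replicate 2 (median −1.67), and of 11 mast cell and basophil genes 7 were (median −1.06). Centring each array left 8 neutrophil genes lower (median −1.35). The neutrophil list mean was 8.99 to 9.41 on the HOXB4-ER replicate 1 arrays and 6.30 to 6.55 on the HOXB4-ER replicate 2 arrays. In HOXB4const cells it was 6.60 and 6.51 with TMX and 6.77 and 5.74 without (replicates 1 and 2). Endothelial genes, which share Vwf with platelets, were lower in 10 of 11 with a median of −0.46 (7 of 11 and −0.14 with centred arrays) and 1 at an unadjusted p under 0.05, their list means overlapped (4.60 to 5.53 against 4.05 to 4.83), and Cdh5 was dim on all arrays. For the Gapdh transcript the 3′ control probe set exceeded the 5′ one, a gap that widens as RNA degrades, by 0.74 to 1.42 on replicate 1 and 1.48 to 3.98 on replicate 2 arrays. The part of these in the Pf4 and Vwf differences was not tested.

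Of the wider list, 12 of 54 genes had an unadjusted p under 0.05 between the replicate numbers, 4 higher and 8 lower on replicate 2, against 12.1% of all genes. Replicate 2 was higher in 5 of 5 groups for 7 of them, among which were the transcription factor genes Gata1, Gata2, Tal1, Lyl1 and Meis1, with Selp and Rgs18 (10.9% of all genes), and lower in 5 of 5 for 8, among which were Cd9, Itgb1, F13a1 and P2ry12 (8.98% of all genes). With centred arrays 10 were higher in 5 of 5, with all 7 of these among them, and 3 lower (14.8% and 3.61% of all genes), and Cd9 and Itgb1 were no longer lower in all groups. Cd9, a tetraspanin also present on macrophages, gave −1.19 ± 0.24 (adjusted p = 0.177), and F13a1, the coagulation factor XIII subunit gene that monocytes also transcribe, −1.10 ± 0.23 (adjusted p = 0.186). Selp (brightest probe set), which encodes P-selectin of the alpha granule membrane, gave 1.16 ± 0.25 (limma adjusted p = 0.186). P2ry12, an ADP receptor gene, gave −3.00 ± 0.74 (limma adjusted p = 0.226).

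By its brightest probe set, Selp also had the profile nearest to that of Pf4. Over 10 arrays and 11340 other genes at or above the median level, each profile centred on its mean, the root mean square difference from Pf4 was 0.37 for Selp, 0.45 for the coagulation inhibitor gene Tfpi, 0.49 for the mast cell receptor gene Ms4a2, 0.51 for Plet1 and 0.54 for Pter. This Selp probe set read 7.29 to 9.01 on replicate 1 and 8.67 to 9.91 on replicate 2 arrays, and 7.29 to 9.10 on HOXB4-ER and 8.72 to 9.91 on HOXB4const arrays. A dimmer one read 6.69 and 6.02 in HOXB4const cells with TMX and 7.44 and 5.28 without (replicates 1 and 2). In HOXB4-ER cells it read 5.17 and 4.54 with TMX, 5.71 and 5.37 after 1 h and 4.22 and 5.55 after 4 h. The dimmest was higher on replicate 2 in each HOXB4-ER group and lower in each HOXB4const group. The genes nearest to Itga2b were Dcps (0.17), Metrn (0.20), Ski (0.22), Myl4 (0.23) and Pola2 (0.23), none of them on the wider list. These likenesses are descriptions over arrays of the same 5 groups and 2 replicate numbers.

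**Figure D4:**
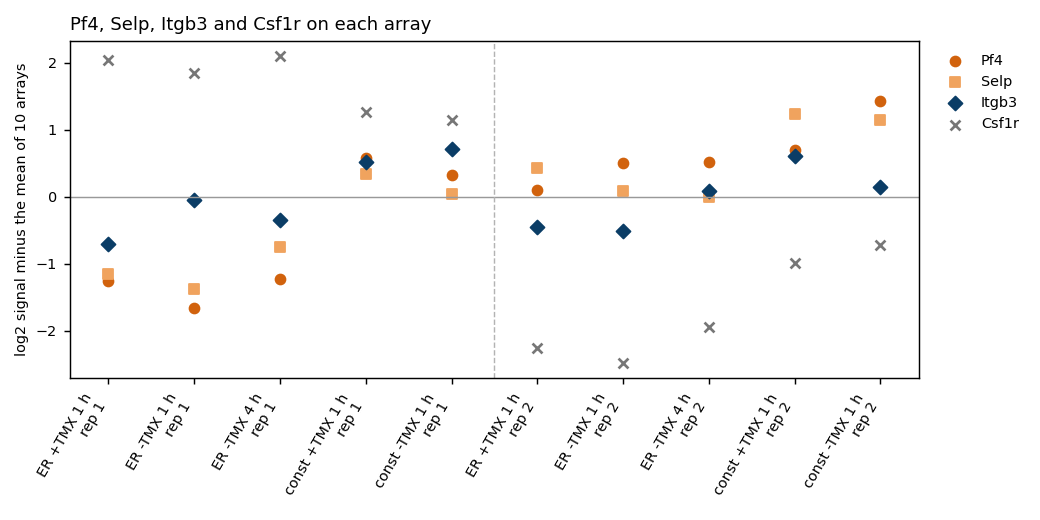
Log2 signal minus the mean of the 10 arrays (vertical axis) on each array (horizontal axis). The genes are Pf4, Selp (brightest probe set), Itgb3 (brighter probe set) and Csf1r. Replicate 1 lies left and replicate 2 right of the dashed line. Pf4 and Selp are low on the 3 HOXB4-ER replicate 1 arrays, and Itgb3 is high on the 4 HOXB4const arrays. Csf1r is high on the replicate 1 arrays of both constructs, and Pf4 and Selp are not low on those of HOXB4const.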

How the data were processed

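Amplified RNA of 10 samples was measured on Affymetrix Mouse Genome 430 2.0 arrays, per the labels. The deposited values are log2 signals. GCOS and RMA stand in the submitters' processing notes without a role. Each array's unlogged mean, trimmed by 2% at either end, was 100.0 while quantiles differed, which is how GCOS scales, so no normalization was added. How background was corrected: not given in the sources used here. Of 45101 probe sets, 64 controls were left out; 34945 have 1 symbol, 932 several and 9160 none in the platform annotation.

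Groups were fitted with limma 3.58.1 (R 4.3.3) on all 10 arrays, 1 mean per group, two-sided, with Benjamini-Hochberg adjustment over 45037 probe sets and a threshold of 0.05; the replicate comparison adds a term for the number. The fit was tested on simulated data. A gene is represented by its brightest probe set. Named were all members and, of the wider list, up to 4 genes with the smallest p; P2rx1, Gng11 and the genes listed by direction in 5 of 5 groups or by arrays without overlap were partly chosen after their values were seen. Replicate numbers paired the arrays: replicate differences correlated between groups in 10 of 10 pairs (0.210 to 0.527). The members and lists were chosen with earlier results of these data known. Alternatives were other scalings, filters, variance models, groups, the replicate block and leaving out each array.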

Additional observations from a re-analysis of the deposited data

Results flagged for a closer look

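Itga2b stood out because its direction was opposite in every group of each construct. Replicate 2 minus replicate 1 was above 0 in 3 of 3 HOXB4-ER groups and below 0 in 2 of 2 HOXB4const groups; the difference between the constructs was 1.53 ± 0.45 (limma adjusted p = 0.993, and 0.491 among the brighter probe sets). Its withdrawal difference at 1 h was above 0 on both replicate numbers in HOXB4-ER cells (0.28 and 0.34) and below 0 on both in HOXB4const cells (−0.04 and −0.11) in the deposited values. With each array centred on its median these were −0.02 and −0.13 against −0.91 and 0.15, and after quantile normalization 0.33 and 0.38 against 0.18 and −0.10, so this opposite pattern held in the deposited values alone. The difference of 0.39 ± 0.83 did not pass (adjusted p = 1.00).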

How the results depend on the processing

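Counts of 0 past the threshold held for the 7 comparisons under centring, quantile normalization, the groups of a comparison alone and every array left out. With the replicate block, 0 probe sets passed in each of the 6 group comparisons and in the averaged construct comparison, and no member call changed. Flooring signals at 10 gave 13 probe sets after 1 h in HOXB4-ER cells, 22 from 1 h to 4 h, 55 in HOXB4const cells, 1 for the difference of the withdrawals, 1 between the constructs and 383 for the replicate numbers. Trend and robust settings gave 1 between the constructs and 2706 for the replicate numbers, with 1 member (Pf4) among them. The averaged construct comparison gave 2 with the floor and 9 with trend and robust settings. The replicate numbers gave 850 among brighter probe sets and 343 with no group term. The members' median between the constructs with TMX was −0.89 over the brighter members. Leaving out 1 array, members' medians ran from −0.53 (leaving out the first HOXB4-ER array of 1 h withdrawal; −0.51 leaving out the second of 4 h) to 0.028 from 1 h to 4 h, from 0.076 to 0.68 (without HOXB4const without TMX replicate 2) in HOXB4const cells, and from −0.83 (without HOXB4const with TMX replicate 2) to −0.19 between the constructs. Centring turned the sign of the members' median in 6 of the 7 comparisons, all but 4 h without minus 1 h with TMX; quantile normalization turned it for the replicate numbers (0.02). Of 12 member probe sets, 3, 5, 4, 3, 2, 8 and 6 kept their sign in every setting run, in the order HOXB4-ER 1 h, 4 h, 4 h minus 1 h, HOXB4const, difference of withdrawals, constructs and replicate numbers. The causes were not tested. Pairs of arrays limit precision: the median 95% interval of brighter probe sets reached 1.33 to either side.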
